A study of Mus musculus with 24 samples.

Results

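The comparison described here asks whether a PPAR-beta ligand acts differently on gene expression in mouse keratinocytes that carry activated Hras than in keratinocytes that do not. It is a difference of differences on the log2 scale: GW0742 minus DMSO in wild-type cells with Hras, minus GW0742 minus DMSO in wild-type mock cells. It rests on 12 of the 24 arrays of the series, 3 in each of 4 groups, and was taken across 19937 genes. The 4 groups were wild-type Hras cells with GW0742, wild-type Hras cells with DMSO, wild-type mock cells with GW0742 and wild-type mock cells with DMSO. All were primary keratinocytes of strain C57/BL6, grown for 2 days before transduction with an Hras retrovirus or mock transduction. The labels give 48 hours for the Hras transduction and 24 hours for the ligand at 1 uM, with DMSO as the control. The other 12 arrays have the same 4 treatments in Ppar-beta null keratinocytes. They gave the same contrast in that genotype, which is not a repeat of the wild-type one. Its values came from those 12 arrays and its error estimate from all 24. Nothing in the labels says that the 3 arrays of a group are separate cultures or separate animals, and the p-values below therefore measure spread between arrays that may be technical.

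PPAR-beta (gene symbol Ppard, also called PPAR-delta) is a nuclear receptor that binds fatty acids and, paired with a retinoid X receptor, turns on genes for fatty acid uptake, oxidation and storage. In epidermis it is also known for its part in keratinocyte differentiation, lipid barrier formation and wound repair, and GW0742 is a synthetic agonist selective for it. Activated Hras signals through the RAF, MEK and ERK kinases to immediate early transcription factors and is the classical initiating oncogene of mouse skin tumours. Keratinocytes that carry it lose part of their differentiation programme and make ligands of the EGF receptor. A positive interaction difference means that the ligand effect was more positive with Hras. It can come from a larger rise with Hras, or from a fall in mock cells that was absent or smaller with Hras. Both ligand effects are given for some genes, and a difference printed alone does not tell these apart.

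Array medians of the wild-type arrays lay between 7.46 and 7.51 (log2), and precision is limited by having 3 arrays in a group. The first principal component of the wild-type arrays held 79.8% of the variance and set the Hras arrays apart from the mock arrays. The second held 7.19%, and on it the GW0742 arrays with Hras scored between -13.77 and -10.1, the DMSO arrays with Hras between 9.14 and 16.25, the GW0742 arrays without Hras between -6.42 and -5.64, and their DMSO arrays between 5.29 and 5.64. The 12 keratinocyte markers averaged 12.08 to 12.17 in Hras cells with GW0742, 12.05 to 12.21 in Hras cells with DMSO, 13.43 to 13.45 in mock cells with GW0742 and 13.46 to 13.48 in mock cells with DMSO, and none of them passed for the interaction. Krt1, a keratin of differentiating cells, was the marker furthest apart between Hras and mock cells among those named, at 7.14, 7.74 and 7.69 in Hras cells with GW0742 and 7.75, 8.02 and 8.38 with DMSO, against 13.75, 13.76 and 13.79 in mock cells with GW0742 and 13.85, 13.87 and 13.82 with DMSO. Ppard itself, the receptor gene, averaged 11.82 ± 0.02 and 11.64 ± 0.04 in Hras cells with GW0742 and DMSO and 11.26 ± 0.04 and 11.19 ± 0.07 in mock cells with GW0742 and DMSO (SD, n = 3 each), with an interaction difference of 0.10 ± 0.07 (SE, adjusted p = 0.565). In null cells Ppard read 11.21, 11.47 and 11.41 with Hras and GW0742, 11.37, 11.39 and 11.34 with Hras and DMSO, 10.73, 10.60 and 10.80 in mock cells with GW0742 and 10.61, 10.60 and 10.64 with DMSO. These are lower than in the matching wild-type groups but far from the low end of the range, and the labels do not say which part of the gene the null allele lacks or whether the probes lie in it, so this reading does not check the genotype.

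TGANTCA is the core site of AP-1, the dimer of Fos and Jun proteins, whose binding was not tested. The promoters of 4 genes are shown because these genes passed in the positive direction and each window holds this site. Each is the 250 bases before the start of the gene's listed RefSeq transcript on GRCm38.p6, 5′ to 3′ on the plus strand, with the TGANTCA match in capitals. Mmp13 (chr9:7272264-7272513) encodes a collagenase, Mmp10 (chr9:7502092-7502341) stromelysin 2, Il1rn (chr2:24336610-24336859) the interleukin 1 receptor antagonist and Sprr2e (chr3:92351893-92352142) a small proline-rich protein of the cornified envelope.
Mmp13: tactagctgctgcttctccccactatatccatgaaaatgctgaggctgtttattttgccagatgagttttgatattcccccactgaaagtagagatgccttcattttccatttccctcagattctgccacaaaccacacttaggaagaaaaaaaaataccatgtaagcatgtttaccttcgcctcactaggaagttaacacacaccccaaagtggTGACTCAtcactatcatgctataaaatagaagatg
Mmp10: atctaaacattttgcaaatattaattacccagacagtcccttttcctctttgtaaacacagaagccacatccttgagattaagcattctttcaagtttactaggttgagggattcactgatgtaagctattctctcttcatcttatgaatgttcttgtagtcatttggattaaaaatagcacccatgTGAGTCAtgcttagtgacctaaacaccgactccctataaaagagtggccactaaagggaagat
Il1rn: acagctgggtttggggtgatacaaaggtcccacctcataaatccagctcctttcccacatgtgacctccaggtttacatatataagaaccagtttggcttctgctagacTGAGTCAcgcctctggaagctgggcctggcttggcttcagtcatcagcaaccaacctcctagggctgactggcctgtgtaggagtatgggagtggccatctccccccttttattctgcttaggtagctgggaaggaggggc
Sprr2e: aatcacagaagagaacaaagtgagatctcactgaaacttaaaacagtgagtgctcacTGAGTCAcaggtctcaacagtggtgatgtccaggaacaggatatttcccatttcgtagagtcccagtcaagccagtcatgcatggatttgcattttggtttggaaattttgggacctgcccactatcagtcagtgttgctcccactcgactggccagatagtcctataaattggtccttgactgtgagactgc
The first base of the match lies 35 bases before the start site in Mmp13, 63 in Mmp10, 141 in Il1rn and 193 in Sprr2e. TGANTCA, read on both strands, was found in 40 of the 351 positive genes with a listed promoter (11.4%), in 5 of 78 negative genes (6.41%) and in 948 of all 15561 (6.09%). For AGGTCA, the single hexamer bound by many nuclear receptors, the shares were 12.3%, 6.41% and 12.2%, and for ACGTG, the core of the hypoxia response element, 19.4%, 15.4% and 18.5%. The direct repeat of AGGTCA with 1 base between its copies, which also counts under AGGTCA, was in 0 windows of either passing group and in 0.0386% of all. These are matches of letters in a short window, described without a test.

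The difference passed (adjusted p under 0.05) for 563 genes, 2.82% of those tested: 468 were more positive with Hras (2.35%) and 95 more negative (0.477%). Of them 213 reached 1.5-fold, 196 positive and 17 negative. The shares of 2.35% and 0.477% are the background for the list counts below. All 563 had array values that separate, meaning that the 9 GW0742 minus DMSO pairs with Hras did not overlap the 9 pairs without it. This held for 1789 of all genes (8.97%). It is read from the same arrays as the test, so it describes the passing genes and adds no support. The pairs combine the 3 arrays of each group and are not separate observations. The ligand effect itself passed for 1420 genes with Hras (7.12%), 967 up (4.85%) and 453 down (2.27%), and for 679 in mock cells (3.41%), 266 up (1.33%) and 413 down (2.07%). How these effects combine describes the parts of the difference and is no further test of it. Among the 468 positive genes, 334 rose with Hras while their mock effect did not pass (median effects 0.55 and -0.03), 30 rose in both, 19 rose with Hras and fell in mock cells, 62 fell in mock cells while their effect with Hras did not pass (medians 0.05 and -0.44), 2 fell in both, and 21 passed in neither. Among the 95 negative genes, 43 fell with Hras while their mock effect did not pass (medians -0.30 and 0.11), 25 rose in mock cells while their effect with Hras did not pass (medians -0.02 and 0.46), 10 rose in both and 17 passed in neither.

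**Figure D1:**
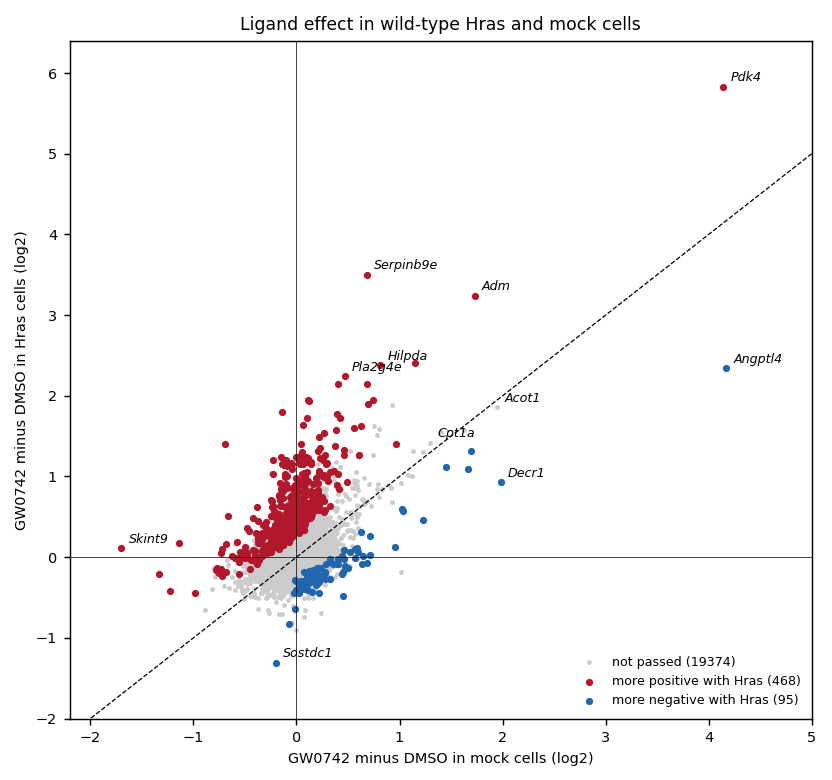
Ligand effect (GW0742 minus DMSO, log2) with Hras on the vertical axis against that in mock cells on the horizontal axis, 1 point per gene, wild-type arrays. The 468 genes with a more positive effect with Hras (red) lie above the dashed line of equal effects and the 95 with a more negative one (blue) below it. Pdk4 and Angptl4 rose in both but lie on opposite sides of the line, and Acot1 and Cpt1a lie near it.

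The count depends on single arrays. Without replicate 2 of the mock DMSO arrays 344 genes passed, without replicate 1 of the mock GW0742 arrays 347 and without replicate 3 of the Hras GW0742 arrays 346, while without replicate 3 of the Hras DMSO arrays 658 passed. That last array was the highest of its 3 in 241 of the 468 positive genes (51.5%, against 31.5% of all genes), and the median SD of its group was 0.0982 in the positive genes against 0.0757 in all genes. Replicate 3 of the Hras GW0742 arrays was the highest of its 3 in 276 of them (59%, against 28.5% of all genes). The part of these arrays in the results was not tested beyond leaving each out.

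Of the listed PPAR target genes, 8 passed and were split between both directions. Of 31 measured PPAR target genes 4 passed as more positive (Pdk4, Hilpda, Adm and Fabp4) and 4 as more negative (Angptl4, Decr1, Acsbg1 and Eci2), with a median of 0.00, against -0.01 over all genes. The ligand raised 16 of them with Hras and 14 in mock cells. The differences of Adm and Fabp4 passed in Ppar-beta null cells too (1.23 and 1.09), while those of Pdk4 and Hilpda did not (0.13 and 0.21).

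Pdk4, a kinase that shuts down pyruvate dehydrogenase and spares glucose, read 12.33, 12.45 and 12.61 in Hras cells with GW0742 and 6.71, 6.45 and 6.75 with DMSO. In mock cells it read 10.99, 10.93 and 10.90 with GW0742 and 6.74, 6.78 and 6.87 with DMSO. The DMSO levels with and without Hras overlapped, and the ligand levels did not. The ligand effect was thus 5.83 ± 0.08 with Hras and 4.14 ± 0.08 in mock cells, an interaction difference of 1.69 ± 0.12 (SE, adjusted p = 2.06e-05). Hilpda, which encodes a lipid droplet protein that inhibits the lipase ATGL, read 10.27, 10.25 and 10.23 in Hras cells with GW0742 and 7.83, 7.88 and 7.90 with DMSO. Mock cells gave 8.07, 8.11 and 8.04 with GW0742 and 7.13, 7.31 and 7.35 with DMSO, so that no mock array reached the ligand-treated Hras arrays. Its difference was 1.57 ± 0.08 (adjusted p = 1.74e-06). Adm, the gene of the vasodilator peptide adrenomedullin, rose by 3.24 with Hras and 1.73 in mock cells (difference 1.51 ± 0.18, adjusted p = 0.000683), and Fabp4, a fatty acid carrier best known from fat cells, by 1.60 and 0.56 (difference 1.04 ± 0.15, adjusted p = 0.00282).

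Angptl4, a secreted inhibitor of lipoprotein lipase, had the most negative difference of all passing genes. It read 12.02, 12.10 and 12.11 in Hras cells with GW0742 and 9.79, 9.88 and 9.55 with DMSO. In mock cells it read 11.66, 11.62 and 11.67 with GW0742 and 7.50, 7.52 and 7.44 with DMSO. Both levels were higher with Hras and the DMSO level more so, so the rise was 2.34 ± 0.07 with Hras and 4.17 ± 0.07 in mock cells (difference -1.83 ± 0.10, adjusted p = 2.78e-06). Decr1, the mitochondrial 2,4-dienoyl-CoA reductase, had DMSO levels that overlapped and a lower ligand level with Hras. It read 8.37, 8.58 and 8.41 in Hras cells with GW0742 and 7.66, 7.49 and 7.42 with DMSO, and 9.38, 9.49 and 9.33 in mock cells with GW0742 and 7.41, 7.35 and 7.50 with DMSO (difference -1.05 ± 0.11, adjusted p = 0.000287). Acsbg1, an acyl-CoA synthetase, rose by 1.09 with Hras and 1.66 in mock cells (difference -0.57 ± 0.07, adjusted p = 0.00115), and Eci2, an enoyl-CoA isomerase, by 1.12 and 1.45 (difference -0.33 ± 0.07, adjusted p = 0.0284).

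Other classical targets rose in both kinds of cell and their differences did not pass. The ligand effects with Hras and in mock cells were 1.42 and 1.30 for Cpt1a, the carnitine palmitoyltransferase that admits fatty acids to mitochondria, 1.32 and 1.13 for the lipid droplet coat gene Plin2, 1.86 and 1.95 for the thioesterase gene Acot1, and 1.55 and 1.40 for the cholesterol exporter Abca1. Their differences were 0.12 ± 0.07, 0.18 ± 0.06, -0.09 ± 0.09 and 0.15 ± 0.09. The mitochondrial fatty acid oxidation list, which shares members with the targets, had 15 of 22 genes up with Hras and 15 up in mock cells, and 1 positive (Acadl, 0.43 ± 0.07) and 2 negative differences with a median of -0.01, of which 1 negative was left without any of 9 single arrays.

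**Figure D2:**
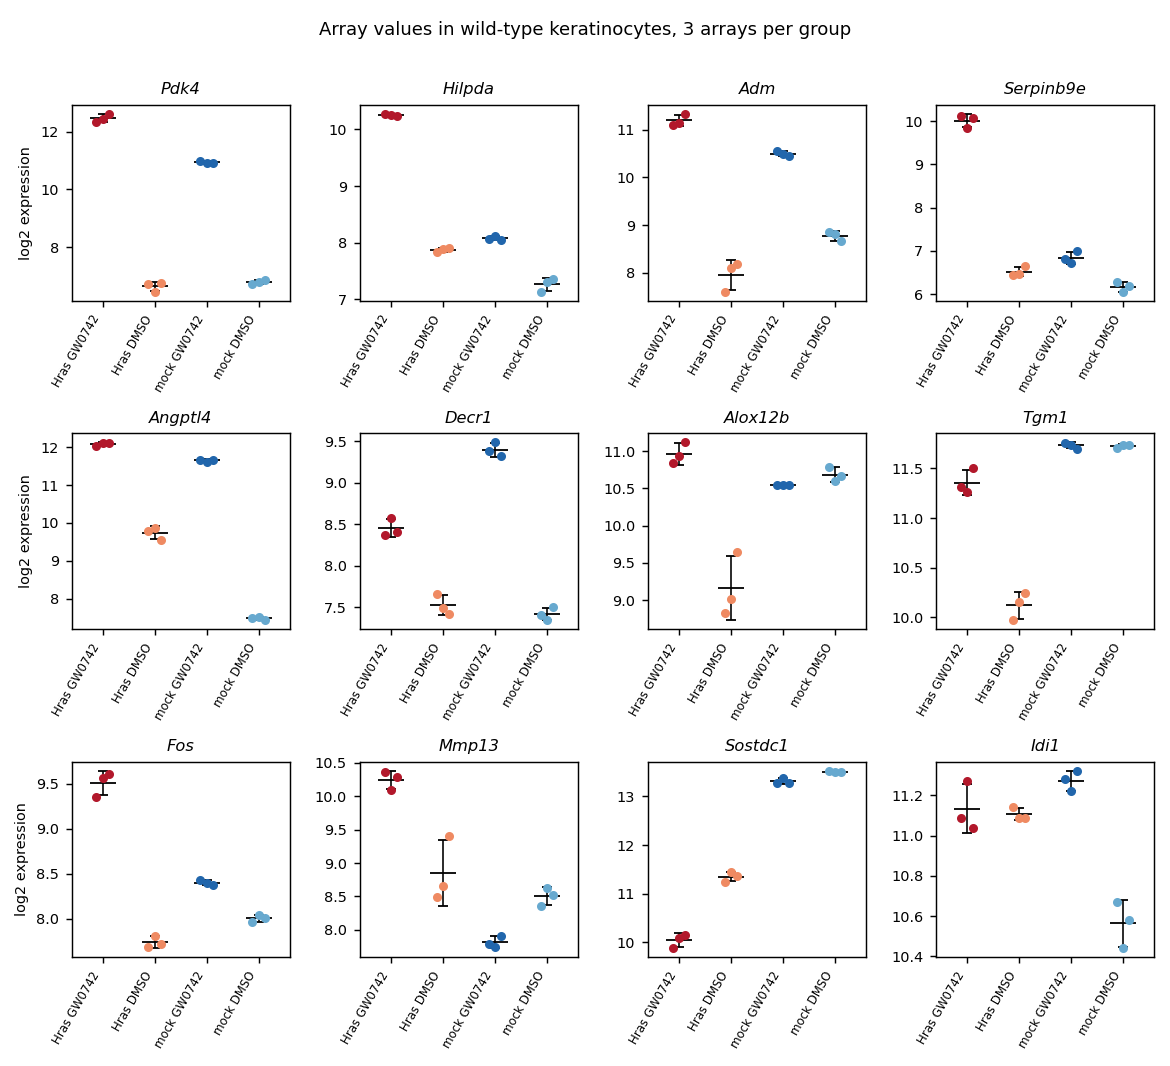
Log2 expression of 12 genes on each wild-type array (points), with the mean and SD of each group of 3 (bars), groups in the order Hras GW0742, Hras DMSO, mock GW0742, mock DMSO. Vertical axes differ between panels and do not start at 0. In Pdk4, Hilpda and Serpinb9e the Hras GW0742 arrays stand highest. In Alox12b and Tgm1 the Hras DMSO arrays stand lowest, and in Angptl4 and Idi1 the mock DMSO arrays do.

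Glucose metabolism and hypoxia genes were more positive with Hras in 12 of 35 cases, with none negative and a median of 0.30. Above 0 were 31 of the 35 (9437 of 19937 over all genes). The ligand raised 25 of them with Hras (median 0.44) and 7 in mock cells (median 0.10). Beside Hilpda and Adm these were, among the larger ones, Egln3, an oxygen-sensing prolyl hydroxylase (1.27 ± 0.15, adjusted p = 0.000694), Pfkfb3 (1.11 ± 0.22, adjusted p = 0.0193) and Pfkfb4 (0.55 ± 0.08, adjusted p = 0.00219), which make the glycolytic activator fructose 2,6-bisphosphate, and Ndrg1 (0.60 ± 0.11, adjusted p = 0.0111), a stress gene induced by low oxygen. Egln3 read 11.05, 10.98 and 11.42 in Hras cells with GW0742 and 9.53, 9.61 and 9.83 with DMSO, against 8.74, 8.63 and 8.75 in mock cells with GW0742 and 8.51, 8.41 and 8.54 with DMSO. Its 4 groups did not overlap and its mock effect of 0.22 did not pass. Pdk1 (0.44 ± 0.12) and P4ha2 (0.38 ± 0.10) did not pass. Leaving out replicate 3 of the mock DMSO arrays left 7 of the 35.

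Genes of the epidermal lipid barrier passed as more positive in 10 of 28 cases with none negative. Above 0 were 26 of the 28 (9437 of 19937 over all genes), with a median of 0.25. With Hras the ligand raised 16 of them and in mock cells 1 rose and 1 fell. Alox12b, the 12R-lipoxygenase that oxidises ceramide linoleate for the cornified lipid envelope, had the largest difference of the list. It read 10.84, 10.93 and 11.12 in Hras cells with GW0742 and 8.82, 9.02 and 9.65 with DMSO, against 10.55, 10.55 and 10.54 in mock cells with GW0742 and 10.79, 10.60 and 10.67 with DMSO. The Hras DMSO arrays were the lowest of all, and the ligand-treated Hras arrays lay slightly above the mock arrays (difference 1.94 ± 0.22, adjusted p = 0.000683). Its partner enzyme Aloxe3 (1.26 ± 0.21, adjusted p = 0.00718), the acylceramide enzyme Pnpla1 (1.22 ± 0.19, adjusted p = 0.00356), Sdr9c7, a dehydrogenase acting on the oxidised ceramides (1.58 ± 0.29, adjusted p = 0.0106), and the alkaline ceramidase Acer1 (0.95 ± 0.22, adjusted p = 0.0361) also read lowest in the Hras DMSO arrays, with mock effects between 0.01 and 0.06. Alox12, the platelet-type lipoxygenase, did not pass with Hras (0.01) and fell by 0.63 in mock cells. Degs2 (0.64 ± 0.24) and Cyp4f39 (0.56 ± 0.15) did not pass. Between 6 and 13 of the list passed when each array was left out in turn, the fewest without replicate 3 of the mock DMSO arrays.

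Cornified envelope and differentiation genes were mostly above 0, and few members passed. Of 51, 47 were above 0 (9437 of 19937 over all genes), with a median of 0.29, 7 passed as positive and none as negative. Tgm1, the transglutaminase that cross-links the envelope, read 11.31, 11.26 and 11.50 in Hras cells with GW0742 and 9.97, 10.15 and 10.24 with DMSO, against 11.76, 11.74 and 11.70 in mock cells with GW0742 and 11.71, 11.74 and 11.74 with DMSO. The mock groups overlapped throughout and lay above both Hras groups (difference 1.23 ± 0.10, adjusted p = 6.99e-05). Sprr2e (1.00 ± 0.16), Tgm3 (0.96 ± 0.15), the envelope proteins Cnfn (0.68 ± 0.13), Sprr3 (0.64 ± 0.13) and Ivl (0.54 ± 0.08) passed as well, and the pseudogene Sprr2j-ps, outside the list, reached 1.74 ± 0.23 (adjusted p = 0.0013). Members of the Sprr2 cluster are similar in sequence, and shared hybridisation was not tested. The late envelope genes Lce3a (0.94 ± 0.29, adjusted p = 0.124) and Lce3e (0.87 ± 0.31, adjusted p = 0.192) rose with Hras by 1.88 and 1.62 but did not pass for the difference. Without replicate 3 of the Hras DMSO arrays 22 of the 51 passed. None of 19 basal keratinocyte genes passed (median -0.00), among them Krt15 (-0.41 ± 0.11) and Itga3 (-0.24 ± 0.07).

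Transcription factors of epidermal differentiation passed as positive in 7 of 37 cases, with none negative and a median of 0.13. Prdm1 (1.12 ± 0.19, adjusted p = 0.00675), Ovol1 (0.90 ± 0.11, adjusted p = 0.00112) and Hopx (0.81 ± 0.12, adjusted p = 0.00357), which act in terminal differentiation, and Grhl3 (0.68 ± 0.08, adjusted p = 0.000873), Grhl1 (0.62 ± 0.11, adjusted p = 0.00805) and Zfp750 (0.68 ± 0.15, adjusted p = 0.0293), which act in barrier formation, rose with Hras by 0.67 to 1.18 and had mock effects between -0.04 and 0.22 that did not pass. Keratins passed in 3 of 20 cases: Krt23 (1.43 ± 0.22), Krt80 (0.77 ± 0.12) and Krt75 (0.69 ± 0.12). Among ion channels and connexins 6 of 26 passed, all positive (2.35% of all genes passed as positive). Without replicate 3 of the Hras DMSO arrays 10 of these 26 passed and 5 of the 20 keratins, and without replicate 1 of the Hras DMSO arrays 1 channel gene passed as negative. They include the epithelial sodium channel subunits Scnn1g (1.39 ± 0.15, adjusted p = 0.000323) and Scnn1b (1.10 ± 0.15, adjusted p = 0.00135) and the connexin gene Gjb6 (1.21 ± 0.22, adjusted p = 0.0108). Scnn1g read 8.54, 8.63 and 8.90 in Hras cells with GW0742, against 7.22 to 7.59 in Hras cells with DMSO, 7.45 to 7.49 in mock cells with GW0742 and 7.51 to 7.70 in mock cells with DMSO, so that the ligand-treated Hras arrays stood alone.

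Phospholipases and prostaglandin enzymes passed in 3 of 23 cases, all positive, and in 5 without replicate 3 of the Hras DMSO arrays. Among all genes 2.35% passed as positive. Pla2g4e and Pla2g4d, neighbouring members of the cytosolic phospholipase A2 family, rose with Hras by 2.24 and 2.41 and in mock cells by 0.47 and 1.15 (differences 1.76 ± 0.16, adjusted p = 0.000161, and 1.26 ± 0.18, adjusted p = 0.0022), and Ptges, a prostaglandin E synthase, had a difference of 0.46 ± 0.10 (adjusted p = 0.0243). Pla2g4f, the third gene of that cluster, rose in both by 1.27 and 0.74, and its difference of 0.52 ± 0.16 did not pass.

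Immediate early genes and feedback regulators of the ERK pathway were more positive with Hras in 13 of 37 cases, with 1 negative and a median of 0.23. The ligand raised 20 of them with Hras and 4 in mock cells. Fos read 9.35, 9.56 and 9.61 in Hras cells with GW0742 and 7.68, 7.81 and 7.72 with DMSO, against 8.43, 8.40 and 8.37 in mock cells with GW0742 and 7.96, 8.04 and 8.01 with DMSO. Its DMSO arrays with Hras were below those of mock cells and its ligand arrays with Hras were above all others (difference 1.37 ± 0.09, adjusted p = 1.28e-05). The zinc finger genes Egr1 (0.93 ± 0.13, adjusted p = 0.00205) and Egr2 (0.79 ± 0.18, adjusted p = 0.0325), the MAP kinase phosphatase Dusp1 (0.77 ± 0.09, adjusted p = 0.00045) and Maff (0.48 ± 0.07, adjusted p = 0.00378) had mock effects between -0.05 and 0.19 that did not pass. Etv5, an ETS factor downstream of ERK, was the negative one (-0.60 ± 0.12, adjusted p = 0.0184). Dusp5 (0.43 ± 0.10) and Ier2 (0.31 ± 0.09) did not pass. Among 14 EGF receptor ligands and receptors, the ligands Hbegf (0.85 ± 0.08, adjusted p = 0.000205) and Ereg (0.72 ± 0.13, adjusted p = 0.0124) passed. Hbegf read 12.01, 12.20 and 12.20 in Hras cells with GW0742 and 11.18, 11.19 and 11.18 with DMSO, against 10.31 to 10.43 in mock cells with GW0742 and 10.23 to 10.31 with DMSO. Tgfa (0.29 ± 0.11) did not pass. Of the Ras exchange factors and PI3K regulators 2 of 34 passed, Rasgef1b, a guanine nucleotide exchange factor (1.46 ± 0.15, adjusted p = 0.000323), and Pik3r5 (0.43 ± 0.08, adjusted p = 0.00999). Beside these list counts, 2.35% of all genes passed as positive and 0.477% as negative.

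Secreted proteases and inflammatory genes formed a further set. Of 25 matrix metalloproteinases and inhibitors 5 passed, all positive, while 2.35% of all genes passed as positive. Mmp13 had the largest difference of the list and a wide spread in the Hras DMSO arrays: it read 10.36, 10.09 and 10.29 in Hras cells with GW0742 and 8.49, 8.65 and 9.41 with DMSO, against 7.78, 7.74 and 7.91 in mock cells with GW0742 and 8.36, 8.63 and 8.52 with DMSO. With Hras it rose by 1.40, and its mock effect of -0.69 did not pass (adjusted p = 0.0635), although the mock arrays did not overlap (difference 2.09 ± 0.26, adjusted p = 0.000929). Mmp10 (0.71 ± 0.15, adjusted p = 0.0264), Mmp1b (0.69 ± 0.13, adjusted p = 0.0151), Mmp12, the macrophage elastase (0.55 ± 0.09, adjusted p = 0.00378), and the plasminogen activator Plat (0.64 ± 0.10, adjusted p = 0.00303) followed, and Mmp3 (0.48 ± 0.13) did not pass. The effect of Mmp12 did not pass with Hras (0.18), and it fell by 0.37 in mock cells. The call of Mmp10 was lost in 7 alternatives. Mmp13, Mmp12, Mmp1b and Mmp10 lie within a stretch of 6 protein-coding genes on chromosome 9.

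Of 38 cytokines and chemokines 6 passed as positive and 1 as negative, beside 2.35% and 0.477% of all genes. Among the 6, Il1f6, Il1f9 and Il1f5 of the interleukin 36 group (1.30 ± 0.11, 0.98 ± 0.14 and 0.96 ± 0.14) and Il1rn (1.10 ± 0.11, adjusted p = 0.000186) lie within 5 protein-coding genes on chromosome 2. Il1f6 encodes an agonist of the group and Il1f5 its receptor antagonist. Il1f6 read 9.32, 9.33 and 9.43 in Hras cells with GW0742, against 8.10 to 8.27 in Hras cells with DMSO, 7.40 to 7.47 in mock cells with GW0742 and 7.39 to 7.68 in mock cells with DMSO. The beta-defensin Defb14 (1.02 ± 0.23, adjusted p = 0.0336) and the neutrophil chemokine Cxcl2 (0.98 ± 0.20, adjusted p = 0.0214) passed, and Defb4 (1.29 ± 0.33) and Il1f8 (0.83 ± 0.24) did not. The call of Defb14 was lost in 11 alternatives and that of Cxcl2 in 1. The negative one, picked out after its values were seen, was the monocyte chemokine Ccl2, which rose by 0.57 in mock cells, with an effect of -0.01 with Hras (difference -0.57 ± 0.13, adjusted p = 0.0337), and which was lost when any of 10 of the 12 arrays was left out.

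Some positive differences came from falls in mock cells. Skint9, of a family expressed in skin and thymus, read 3.57, 3.61 and 3.96 in Hras cells with GW0742 and 3.64, 3.74 and 3.45 with DMSO, against 4.44, 4.17 and 4.31 in mock cells with GW0742 and 5.70, 6.52 and 5.82 with DMSO. It was near the low end of the array's range with Hras in both treatments, and fell by 1.70 in mock cells (difference 1.81 ± 0.25, adjusted p = 0.00205). Serpinb3a, a clade B serpin of the squamous cell carcinoma antigen group, was arranged alike, at 3.51, 3.79 and 3.70 with Hras and GW0742 and 3.64, 3.21 and 3.61 with Hras and DMSO, against 6.73, 6.78 and 6.82 in mock cells with GW0742 and 7.76, 8.18 and 7.82 with DMSO (difference 1.32 ± 0.18, adjusted p = 0.00172). Gabrp, a GABA receptor subunit, fell in both, by 0.42 with Hras and 1.23 in mock cells (difference 0.81 ± 0.12, adjusted p = 0.00266). Of 22 clade B serpins 3 passed, all as positive (2.35% of all genes did), with a median of 0.17. Without replicate 3 of the Hras DMSO arrays 5 passed with a median of 0.32. Serpinb9e, of the granzyme B inhibitor family, had the largest difference of all. It read 10.13, 9.84 and 10.07 in Hras cells with GW0742 and 6.45, 6.46 and 6.64 with DMSO, against 6.82, 6.72 and 6.99 in mock cells with GW0742 and 6.27, 6.05 and 6.18 with DMSO. The ligand-treated Hras arrays stood far above the rest (difference 2.82 ± 0.13, adjusted p = 8.51e-07). Its relatives Serpinb9 (0.50 ± 0.11, adjusted p = 0.0235) and Serpinb9d (0.71 ± 0.20, adjusted p = 0.0912) are close in sequence, and shared hybridisation was not tested. Serpinb9 had an effect of 0.00 with Hras and fell by 0.50 in mock cells. Serpinb9d rose by 0.60 with Hras, and its mock effect of -0.11 did not pass. It read between 3.36 and 4.44 on the wild-type arrays, near the low end of the array's range. Dnase1l3, a secreted DNase (1.84 ± 0.18), Ppef1, a calcium-binding protein phosphatase (1.82 ± 0.18), and Dhrs9, a retinol and steroid dehydrogenase (1.63 ± 0.23), complete the 12 most positive genes.

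The negative genes were led, after Angptl4, by Sostdc1, a secreted antagonist of BMP and Wnt signalling. It read 9.88, 10.10 and 10.16 in Hras cells with GW0742 and 11.25, 11.44 and 11.37 with DMSO, against 13.28, 13.38 and 13.27 in mock cells with GW0742 and 13.53, 13.50 and 13.49 with DMSO. The groups did not overlap, the effect with Hras was -1.31 ± 0.07 and the mock effect of -0.20 ± 0.07 did not pass (difference -1.11 ± 0.10, adjusted p = 0.000147). Lgr6, a receptor for R-spondins that marks epidermal stem cells, read 9.39, 9.17 and 9.30 in Hras cells with GW0742 and 10.10, 10.14 and 10.11 with DMSO, while its mock groups overlapped between 7.24 and 7.43 (difference -0.76 ± 0.09, adjusted p = 0.000683). The carboxylesterase gene Ces2e (-0.84 ± 0.11), the muscle-type fructose bisphosphatase gene Fbp2 (-0.77 ± 0.14), the synaptic vesicle protein gene Syngr1 (-0.74 ± 0.09) and the diacylglycerol kinase gene Dgki (-0.64 ± 0.11) rose in mock cells, by 0.96, 1.23, 0.68 and 0.65, and with Hras Fbp2 rose by 0.46 while the others did not pass.

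Cholesterol synthesis genes were the list with the lowest median together with the cell cycle genes, both at -0.22. Of 20 cholesterol genes 6 passed as negative, none as positive, and 19 were below 0 (10500 of 19937 over all genes). The ligand raised 16 of them in mock cells (median 0.34) and 6 with Hras (median 0.10), where 1 fell. Idi1, the isopentenyl diphosphate isomerase, read 11.09, 11.27 and 11.04 in Hras cells with GW0742 and 11.14, 11.09 and 11.09 with DMSO, against 11.28, 11.22 and 11.32 in mock cells with GW0742 and 10.67, 10.44 and 10.58 with DMSO. Only its mock DMSO arrays stood apart (difference -0.69 ± 0.10, adjusted p = 0.00253). The sterol demethylase Cyp51 (-0.48 ± 0.09, adjusted p = 0.0113), Insig1, which retains the sterol sensor SCAP (-0.45 ± 0.06, adjusted p = 0.0013), Msmo1 (-0.37 ± 0.07, adjusted p = 0.0178), the squalene synthase gene Fdft1 (-0.35 ± 0.07, adjusted p = 0.0243) and Lss (-0.33 ± 0.08, adjusted p = 0.0375) passed too. Fdps (-0.28 ± 0.09) did not. Without replicate 2 of the mock DMSO arrays 3 of the 20 passed. In fatty acid and triglyceride synthesis the list was split. The elongase genes Elovl6 (-0.48 ± 0.09) and Elovl5 (-0.32 ± 0.07) and the desaturase gene Scd1 (-0.48 ± 0.08, adjusted p = 0.00426) passed as negative, and Dgat2, which completes triglycerides (0.92 ± 0.16, adjusted p = 0.0086), the phosphatidate phosphatase gene Lpin2 (0.54 ± 0.11) and the malic enzyme gene Me1 (0.51 ± 0.07) as positive. Elovl6 and Scd1 rose in mock cells, by 0.46 and 0.59, and their effects with Hras (-0.02 and 0.11) did not pass. Without replicate 3 of the Hras DMSO arrays 5 of this list passed as negative.

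Of 42 cell cycle genes 4 passed as negative and none as positive, and 37 were below 0 (10500 of 19937 over all genes). They were the topoisomerase gene Top2a (-0.48 ± 0.08, adjusted p = 0.00832), the spindle motor gene Kif11 (-0.44 ± 0.09, adjusted p = 0.0202), Ect2 (-0.32 ± 0.07, adjusted p = 0.0241) and Aurkb (-0.32 ± 0.07, adjusted p = 0.0369). Top2a read 10.11, 10.26 and 10.07 in Hras cells with GW0742 and 10.44, 10.33 and 10.51 with DMSO, against 10.27, 10.24 and 10.23 in mock cells with GW0742 and 10.07, 10.02 and 10.03 with DMSO. The ligand-treated arrays were lower than the DMSO arrays with Hras and higher without it, and Mki67 (-0.37 ± 0.11, adjusted p = 0.125) did not pass. The count is small and unstable: it was 8 without replicate 2 of the Hras GW0742 arrays and 1 without any of 5 other arrays, namely replicates 2 and 3 of mock DMSO, replicates 1 and 2 of mock GW0742 and replicate 3 of Hras GW0742.

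No member of the interferon response (28 measured), or of the NRF2 and antioxidant list (27 measured), passed, with medians of 0.08 and 0.00. The unfolded protein list had 1 positive (Chac1, 0.40 ± 0.08) and 1 negative (Shmt2, -0.38 ± 0.08) of 32, and the TGF-beta and matrix list 3 positive (Wnt4, Id2 and Smad7, between 0.35 and 0.46) and 2 negative (Sostdc1 and Lgr6) of 37. Of the 3 positive ones 1 positive call was left without replicate 1 or 3 of mock GW0742 or replicate 3 of Hras GW0742. Each unfolded protein call was lost without some arrays, replicate 2 or 3 of mock DMSO and replicate 1 of mock GW0742 among them. Without replicate 3 of the Hras DMSO arrays 1 NRF2 gene passed as positive. For comparison, 2.35% of all genes passed as positive and 0.477% as negative on the full set of wild-type arrays.

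**Figure D3:**
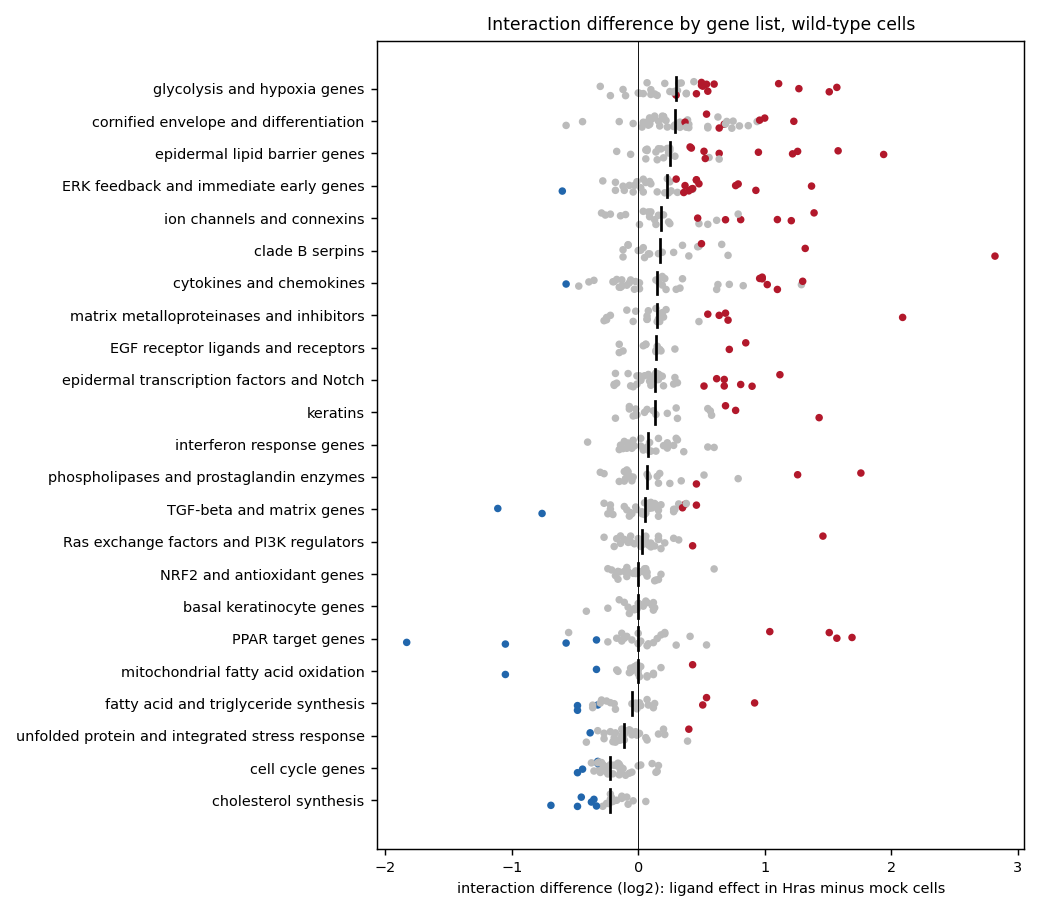
Interaction difference (log2, ligand effect with Hras minus ligand effect in mock cells) of every measured member of 23 gene lists in wild-type cells, lists ordered by their median (black bar). Red points passed as positive, blue as negative and grey did not pass. The medians run between -0.22 (cholesterol synthesis, cell cycle) and 0.30 (glycolysis and hypoxia), beside -0.01 over all genes.

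Markers of other cells that a primary skin culture may hold were read alongside. Over all genes, 9437 of 19937 differences were above 0, 2.35% passed as positive and 0.477% as negative. All 14 melanocyte markers had a difference above 0 (median 0.26) and 1 passed, Trpm1 (0.47 ± 0.08). Their mean level per array was 8.51 to 8.63 in Hras cells with GW0742, 8.39 to 8.53 in Hras cells with DMSO, 9.19 to 9.22 in mock cells with GW0742 and 9.33 to 9.40 in mock cells with DMSO. Of 21 leukocyte and Langerhans cell markers 15 were above 0 and 2 passed, H2-Ab1 (0.99 ± 0.12) and Cd68 (0.55 ± 0.12), with a mean level between 6.64 and 6.86 on all wild-type arrays. Fibroblast markers had 1 of 19 pass (Prrx1, 0.36 ± 0.08), Merkel cell markers 1 of 9 (Isl1, 0.58 ± 0.14) and endothelial markers 0 of 10. With single arrays left out the fibroblast, leukocyte and Merkel counts fell to 0, 1 and 0 at the lowest. The part of these cells in the results was not tested, and in bulk RNA fewer cells of a type and less RNA per cell cannot be told apart.

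The values of the same contrast in Ppar-beta null cells came from the null arrays, and its error was estimated from all 24 arrays, wild-type ones included. There 323 genes (1.62%) passed, 277 positive (1.39%) and 46 negative (0.231%), but 31 passed when the 12 null arrays were fitted alone. The null Hras GW0742 arrays had a median within-group SD of 0.122, above the other groups, and without their replicate 1 or 2 the count was 983 or 100. Of the 468 genes more positive in wild-type cells 393 had the same sign in null cells (84%, while 48.5% of all genes were positive there), 133 passed in that direction and 0 in the other. Their median was 0.54 in wild-type cells, on whose values they were chosen, and 0.29 in null cells. Of the 95 negative genes 72 had the same sign (75.8%, against 51.5% of all genes), 5 passed in that direction and 1, Acsbg1, passed in the other. Across all genes Pearson's r between the genotypes was 0.41, a description over genes that share arrays. Without replicate 1 of the null Hras GW0742 arrays the same-sign counts were 387 and 72, with 195 and 23 passing and 4 and 1 passing in the other direction. Without replicate 2 they were 393 and 68, with 64 and 1 passing and 0 in the other direction.

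Counts in null cells are given here for some of the lists, beside 1.39% of all genes that passed there as positive. In the cornified envelope list 14 of 51 passed there as positive (median 0.48 in null and 0.29 in wild-type cells), in the lipid barrier list 5 of 28 (0.40 in null and 0.25 in wild-type cells), in the channel list 8 of 26 and in the glycolysis list 9 of 35. In the ERK and immediate early list 2 of 37 passed in null cells, with a median of 0.02, against 13 positive and a median of 0.23 in wild-type cells. Metalloproteinases and inhibitors passed as positive in 1 of 25 in null cells, cytokines and chemokines in 6 of 38 and phospholipases and prostaglandin enzymes in 4 of 23. Il1f6, Il1f9 and Il1f5 passed there (0.96, 0.94 and 1.22) and Il1rn did not (0.39). Of 20 cholesterol synthesis genes 0 passed, with a median of -0.18 in null and -0.22 in wild-type cells. No member of the ERK list, of the lipid barrier list or of the glycolysis list other than Hilpda passed for the difference between genotypes.

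Several of the named wild-type differences also passed in null cells. Pla2g4d read 8.97, 9.56 and 8.97 in null Hras cells with GW0742 and 7.38, 7.93 and 7.80 with DMSO, against 6.75 to 6.86 in null mock cells with GW0742 and 6.85 to 6.91 with DMSO. Its null interaction difference was 1.56 ± 0.22 (adjusted p = 0.00209), beside 1.26 in wild-type cells. Those of Scnn1g (1.42 ± 0.23, adjusted p = 0.00362), Fabp4 (1.09 ± 0.16, adjusted p = 0.00209), Adm (1.23 ± 0.23, adjusted p = 0.00907), Alox12b (1.13 ± 0.25, adjusted p = 0.0202) and Mmp13 (1.54 ± 0.31, adjusted p = 0.0147) passed as well. For these 6 genes the null ligand effect was 0.97 to 1.46 with Hras, which passed, and between -0.17 and 0.00 in mock cells. GW0742 passed for 1001 genes in null Hras cells (5.02%) and for 0 in null mock cells by limma, where 1097 had an unadjusted p under 0.05. For Fabp4 the wild-type minus null difference was -0.05 ± 0.22 and for Scnn1g -0.03 ± 0.32 (SE).

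**Figure D4:**
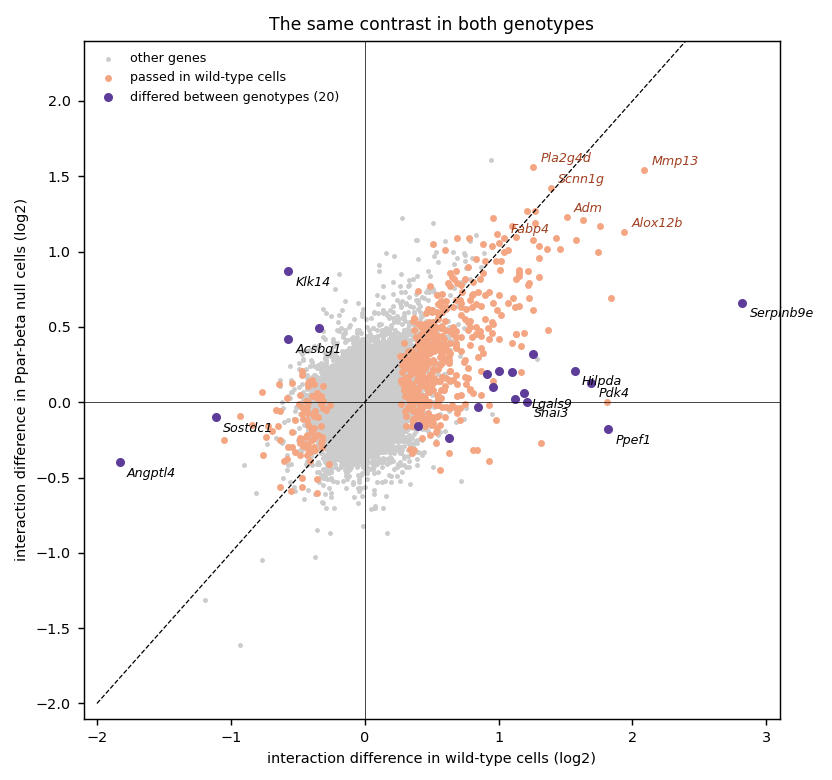
Interaction difference (log2) in wild-type cells on the horizontal axis against that in Ppar-beta null cells on the vertical axis, 1 point per gene. Light orange points passed in wild-type cells and purple points are the 20 genes that differed between genotypes, and the dashed line marks equal values. Of the 468 positive genes 393 lie above 0 on the vertical axis, while Pdk4, Hilpda, Ppef1, Snai3 and Lgals9 lie near 0 in null cells.

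A direct test of the wild-type minus null difference passed for 20 genes (0.1%), 15 positive (0.0752%) and 5 negative (0.0251%), and 1362 had an unadjusted p under 0.05. Without replicate 1 of the null Hras GW0742 arrays 69 passed and without replicate 1 of the null Hras DMSO arrays 33. Of the 20, 15 passed under every alternative in which they were tested (27 for Ppef1 and Serpinb9e, which the filter on dim genes removed, and 28 for the others), while Aqp11, Eif4e3, Prune2, Sgtb and Spin4 were each lost under at least 1. Pdk4 read 6.79, 6.65 and 6.91 in null Hras cells with GW0742 and 6.42, 6.47 and 6.60 with DMSO, and between 6.82 and 7.10 in null mock cells. Its null ligand effect with Hras was 0.29, which passed by limma (adjusted p = 0.0431), and no null array came near the wild-type ligand levels. Its wild-type minus null difference was 1.55 ± 0.16 (adjusted p = 5.65e-05). Hilpda read 8.12, 8.05 and 8.0 in null Hras cells with GW0742 and 7.94, 7.93 and 7.95 with DMSO (1.36 ± 0.11, adjusted p = 9.15e-07). Ppef1, whose null Hras arrays overlapped between 4.96 and 5.47, differed by 2.00 ± 0.25 (adjusted p = 0.000692), and Serpinb9e by 2.16 ± 0.37 (adjusted p = 0.0136). Snai3, a Snail-family repressor (1.21 ± 0.17, adjusted p = 0.00166), and Lgals9, the galectin 9 gene (1.13 ± 0.18, adjusted p = 0.0059), had null differences of -0.00 and 0.06.

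On the negative side Angptl4 differed by -1.43 ± 0.21 (adjusted p = 0.00375). In null cells it read 10.31, 9.89 and 9.75 with Hras and GW0742 and 10.49, 10.32 and 10.26 with Hras and DMSO, against 9.35, 9.35 and 9.51 in mock cells with GW0742 and 9.41, 9.23 and 9.48 with DMSO. Its null mock DMSO level was thus above the wild-type one of 7.44 to 7.52. The null ligand effect of Angptl4 with Hras was -0.37, which passed by limma (adjusted p = 0.0471). Sostdc1 differed by -1.02 ± 0.15 (adjusted p = 0.00266), and its null groups with GW0742 and DMSO overlapped both with and without Hras. Klk14, a kallikrein-related protease of desquamation, had ligand effects of opposite sign with Hras, -0.71 in wild-type and 0.83 in null cells (wild-type minus null -1.44 ± 0.21, adjusted p = 0.00266). Acsbg1 (-1.0 ± 0.13) and Fgfbp1, a carrier of fibroblast growth factors (-0.83 ± 0.13), had negative differences in wild-type cells and positive ones in null cells. Klk14 and Fgfbp1 did not pass in wild-type cells alone (adjusted p = 0.0596 and 0.0785).

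**Figure D5:**
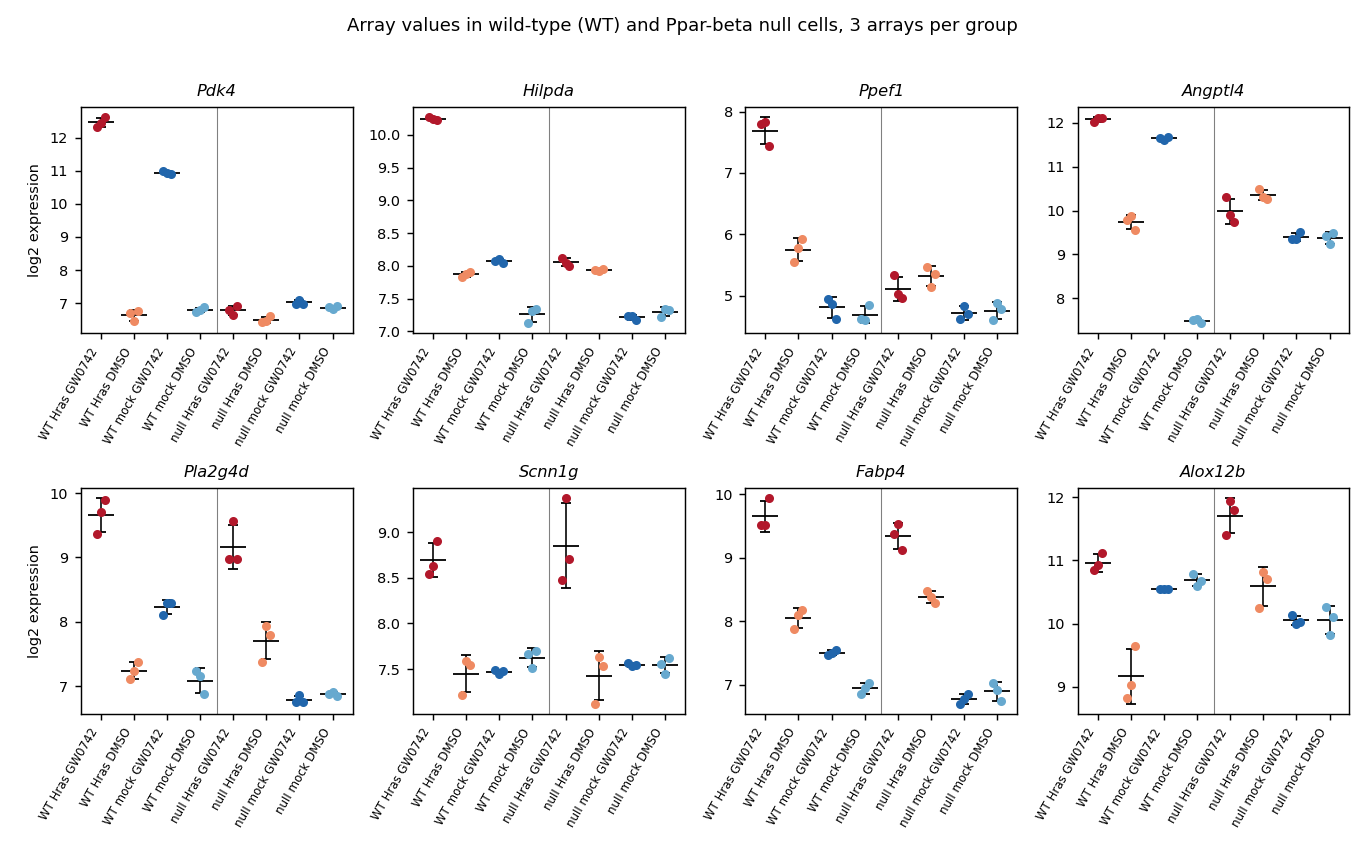
Log2 expression of 8 genes on each array (points), with the mean and SD of each group of 3 (bars). Wild-type groups stand left of the grey line and null groups right of it, each in the order Hras GW0742, Hras DMSO, mock GW0742, mock DMSO, and vertical axes do not start at 0. In the upper row the wild-type rise with Hras is small or absent in the null arrays (Pdk4, Hilpda, Ppef1) or the null levels differ throughout (Angptl4). In the lower row Hras GW0742 arrays stand above Hras DMSO arrays in both genotypes.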

How the data were processed

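RNA of 24 arrays (Affymetrix Mouse Gene 1.0 ST) was measured, 12 of them wild-type. The authors deposited log2 expression values, made with RMA per the submitters' processing notes; the sources used here do not name its software. RMA makes array distributions alike, which can hide a shift of most genes. Of 34760 probe sets, 21640 had 1 gene symbol in the platform annotation, 1321 several and 11799 none listed. For the 954 genes with several probe sets the probe set of highest mean was kept, which left 19937 genes with no filter on dim genes, and 19854 matched a RefSeq table (GRCm38.p6).

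The wild-type contrast was fitted to the 12 wild-type arrays with limma 3.58.1 in R 4.3.3 (cell means, lmFit, eBayes, 8 residual and 4.19 prior degrees of freedom). The null contrast and the difference between genotypes came from all 24 arrays (16 and 4.43). P-values are two-sided and Benjamini-Hochberg adjusted over all genes, threshold 0.05. Errors are standard errors from the fit unless given as SD. The 29 lists (816 memberships, 756 measured) are described by counts and medians only. The members, lists, rule and tests were chosen with earlier results of these data known. Named genes are the 12 most positive and 12 most negative passing genes with separate array pairs (predicted and unnamed transcripts skipped), up to 6 passing and 2 other members per list by absolute difference, and a set of known targets. Further members of the 20 genes that differed between genotypes were named after their values were seen.

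Over all genes, 1 of 18 correlations between same-numbered arrays was over 0.1, so no replicate block was used. Among the 468 positive genes replicate 3 was most often the highest in each wild-type group. The shares were 59% in Hras GW0742, 51.5% in Hras DMSO, 40.2% in mock GW0742 and 40.8% in mock DMSO. Over all genes they were 28.5%, 31.5%, 27.5% and 45.4%. Pairing within the positive genes was not tested beyond the replicate block given as an alternative. Promoter motifs were read from RefSeq windows of 250 bases. On simulated data for the wild-type contrast (19937 genes), 74% of 100 differences of 1.5-fold and 95% of 100 of 2-fold were recovered, with 4 false among 173 calls. The simulated noise was normal, independent between genes and of the same SD in all groups. It therefore lacks deviations that many genes of an array share and groups of wider spread, and its false calls do not cover these. Alternatives were array centring, a filter on dim genes, trend and robust moderation, a replicate block, other sets of arrays, every probe set, a minimum fold and leaving out each array. Figures were drawn with matplotlib 3.10.9.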

Additional observations from a re-analysis of the deposited data

Results flagged for a closer look

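Under a test of the difference itself, wild-type cells with Hras had another GW0742 effect than mock cells in 563 genes. The interaction in turn differed between genotypes for 20. The wild-type minus null differences (log2) were Serpinb9e (2.16), Ppef1 (2.00), Pdk4 (1.55), Hilpda (1.36), Snai3 (1.21), Lgals9 (1.13), Aqp11 (1.10), Prune2 (0.94), Papss2 (0.91), Tbc1d8 (0.88), Gprc5a (0.87), Sgtb (0.86), Spin4 (0.79), Gne (0.71) and Eif4e3 (0.56) on the positive side and Klk14 (-1.44), Angptl4 (-1.43), Sostdc1 (-1.02), Acsbg1 (-1.0) and Fgfbp1 (-0.83) on the negative side. Among these, Gprc5a and Eif4e3 came from falls in wild-type mock cells (-0.50 and -0.32) with effects near 0 with Hras, and Gne rose with Hras and fell in mock cells (0.49 and -0.42). Klk14 and Acsbg1 passed in null cells as positive (0.87 and 0.42). No rule for a single outlying sample was applied to groups of 3 arrays. The effect of leaving out each array is given with the results.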

How the results depend on the processing

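The 563 wild-type differences became 887 with the 40% of genes of lowest mean left out (fewer genes tested), 988 with trend and robust moderation and 213 with a minimum fold of 1.5, and the cause of the second was not tested. Leaving out each array gave 344 to 658, the ligand effect with Hras (1420) 933 to 1360, the mock ligand effect (679) 317 to 764, the null interaction (323) 100 to 983 and the difference between genotypes (20) 15 to 69. The count with Hras was 933 without replicate 3 of the Hras GW0742 arrays. The mock count was 317, 440 and 390 without replicates 1, 2 and 3 of mock GW0742 and 412, 332 and 409 without those of mock DMSO. In null cells it was 983 and 100 without replicates 1 and 2 of Hras GW0742, 160 without replicate 1 of Hras DMSO, 182 and 151 without replicates 2 and 3 of mock GW0742 and 178 without replicate 1 of mock DMSO. With only the 6 arrays compared, the effect with Hras passed for 775 genes, with fewer degrees of freedom. The genotype difference gave 33 with dim genes left out and 43 with trend and robust moderation, and the null interaction 543 and 512. The null interaction gave 31 with only the 12 null arrays, an alternative chosen after seeing the data. Over all genes 6 of 12 arrays correlated best with their own replicate number. With the replicate block 557 wild-type differences passed (489 of them among the 563). Centring each array on its median gave 543 (410 positive, 133 negative), all 24 arrays 492 and every probe set 551. Of 182 named genes 117 passed; 85 passed in every alternative in which they were tested, the minimum fold aside, 32 were lost in at least 1, and 0 reversed. Acer1, Aurkb, Defb14, Lss, Wnt4, Elovl5, Eci2 and Isl1 were each lost in 10 or more. Prrx1 was lost in 9, Cd68 and Serpinb9 in 8, Egr2, Mmp10 and Zfp750 in 7, and Adh7, Chac1, Fdft1 and Sprr3 in 6. List medians moved for fatty acid and triglyceride synthesis (-0.18) and Merkel markers (0.23) with dim genes left out.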

Other observations

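Passing genes lay near each other in 9 stretches of the genome, with at least 3 within a few protein-coding genes of each other. Beside the interleukin 36 and metalloproteinase clusters these include Klf6, Pfkp and Idi1 on chromosome 13, Fam3b, Ripk4 and C2cd2 on chromosome 16 and Scpep1, Coil and Trim25 on chromosome 11. They are listed as positions only, with no test, and the number of stretches to expect by position alone was not estimated. Idi1 passed as negative (-0.69), and the directions of its neighbours are not given here.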
